A study of Mus musculus with 35 samples.

Results

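The naive pluripotency factors are the transcription factors and chromatin proteins that hold mouse embryonic stem cells (ESCs) in the state of the early epiblast. A list of 10 of them was followed here, namely Nanog, Klf4, Klf2, Klf5, Esrrb, Tfcp2l1, Zfp42, Tbx3, Prdm14 and Dppa3, taken by gene symbol from 3 tables of normalized RNA-seq counts. All 10 were listed in each table and passed the filter on low values, among 17948 genes listed on day 3 of differentiation (17915 tested), 18091 where Dnmt1 was given (18055 tested) and 17705 where the catalytic domain of TET3 was given (17481 tested). Their level was compared across Tet3 genotypes and across vectors, and the list is given by gene name, with no threshold on these values, although earlier results of these data were known when it was drawn up.

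The cells were V6.5 ESCs, a male line of mixed 129/C57BL/6 background. The labels name 3 genotypes, wildtype, mutant and knockout, written here as Tet3+/+, Tet3m/m and Tet3-/-. Tet3m/m cells carried H950Y and D952A, a pair of edited substitutions at residues of TET3 that hold iron, which take away its catalytic activity, and Tet3-/- cells had lost exon 4 on both alleles. TET3 is a dioxygenase that oxidizes 5-methylcytosine, and the study set both mutants beside Tet3+/+ to tell loss of catalysis from loss of the protein. All cells were grown in serum and LIF, and LIF was then withdrawn and 1 µM retinoic acid given, which turns ESCs towards neuroectoderm. On day 3 (72 h), 3 clones of Tet3+/+, 3 of Tet3m/m and 2 of Tet3-/- cells were sequenced. In the Dnmt1 experiment, cells of each genotype received an empty vector (EV) or myc-tagged Dnmt1, the maintenance methyltransferase, on day 0, were put under blasticidin 48 h later and were collected after another 24 h, with 2 samples per group. In the Tet3-CD experiment, an HA-tagged form of the TET3 catalytic domain alone, called Tet3-CD, or EV was given on day 2 and cells were collected 48 h later by the study's methods, although the labels state 72 h of retinoic acid for every sample. There was 1 sample per group in that experiment. The clone used in each transfected sample and whether the 2 samples of a group came from separate cultures is not stated in the labels, so p-values from the Dnmt1 experiment measure only the spread between these samples, which may be technical.

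Naive pluripotency rests on a circuit in which LIF, through JAK and STAT3, and Wnt signalling sustain a set of factors that activate each other. Klf4 and Tfcp2l1 are targets of STAT3, Esrrb is released when Tcf7l1 repression is lifted, and Nanog and the KLF proteins keep the rest of the circuit active. When LIF is withdrawn the circuit is shut down within days, and its factors fall before the neural genes come on. Several of the same factors are used elsewhere: Klf4, Klf5 and Tbx3 act in epithelia and in extraembryonic lineages, and Prdm14 and Dppa3 in germ cells.

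Depth was even, at 36594650 to 47710548 reads recovered per day 3 sample, 31155842 to 50845950 per sample of the Dnmt1 experiment and 33475041 to 37707719 with Tet3-CD or its EV. Day 3 clones of a genotype differed from each other by far more than sampling noise, with a mean chi-square per gene of 13.8 to 87.2 over the 7 pairs, against 3.96 to 11.1 over the 6 pairs of the Dnmt1 experiment. All 11 neuroectoderm markers were listed in each table, and on day 3 their summed level was 36467 to 48884 in the 8 samples. Of the 11, 3 were higher and 8 lower in Tet3m/m than in Tet3+/+, with 1 passing the test as higher and 3 as lower. In Tet3-/- 4 were higher and 7 lower than in Tet3+/+, with 1 passing as higher and 0 as lower. Tet3 itself stood at 4613, 4576 and 5020.0 in the day 3 Tet3+/+ clones, at 2666, 2277 and 1945 in Tet3m/m and at 1796 and 2329 in Tet3-/-. It passed the test as lower in both (log2 fold change -1.05 ± 0.13 and -1.21 ± 0.15, ± SE, limma with Benjamini-Hochberg adjustment, adjusted p = 7.10e-04 and 0.0274). Among EV samples of the Dnmt1 experiment it was 2957 and 3075 in Tet3+/+, 1125 and 964 in Tet3m/m and 2520.3 and 2571 in Tet3-/-, the last group differing from Tet3+/+ by -0.24 on the log2 scale, short of 1.5-fold. As a set, the 50 genes that flank Tet3 were low in Tet3m/m as well. Against Tet3+/+ their log2 median was -0.80 on day 3 and -0.71 among EV samples of the Dnmt1 experiment. The matching medians in Tet3-/- were 0.03 and 0.35. The part of this regional shift in the lower Tet3 counts of Tet3m/m was not tested. Counts over the whole gene test neither the loss of a single exon nor the 2 substitutions, and the genotypes rest on the labels.

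The promoters of Nanog, Klf2, Esrrb and Zfp42 are printed here because these are the members whose response to Dnmt1 differed between Tet3-/- and Tet3+/+ cells, as described further on. Each run is the 250 bases before the annotated start in RefSeq's GRCm38.p6 assembly, 5′ to 3′ on the gene's strand, with capitals marking any match to 5 motifs searched on both strands. The windows are chr6:122707239-122707488, plus strand for Nanog, chr8:72318812-72319061, plus strand for Klf2, chr12:86360867-86361116, plus strand for Esrrb and chr8:43307010-43307259, minus strand for Zfp42.
Nanog: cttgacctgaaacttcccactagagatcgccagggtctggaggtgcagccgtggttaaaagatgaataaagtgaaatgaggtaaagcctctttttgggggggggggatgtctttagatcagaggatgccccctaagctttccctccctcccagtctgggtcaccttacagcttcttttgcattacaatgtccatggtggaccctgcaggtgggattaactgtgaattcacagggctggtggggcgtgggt
Klf2: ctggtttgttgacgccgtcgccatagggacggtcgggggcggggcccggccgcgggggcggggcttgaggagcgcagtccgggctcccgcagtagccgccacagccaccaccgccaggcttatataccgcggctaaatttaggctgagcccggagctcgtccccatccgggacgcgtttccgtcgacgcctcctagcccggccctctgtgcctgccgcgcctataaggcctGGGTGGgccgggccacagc
Esrrb: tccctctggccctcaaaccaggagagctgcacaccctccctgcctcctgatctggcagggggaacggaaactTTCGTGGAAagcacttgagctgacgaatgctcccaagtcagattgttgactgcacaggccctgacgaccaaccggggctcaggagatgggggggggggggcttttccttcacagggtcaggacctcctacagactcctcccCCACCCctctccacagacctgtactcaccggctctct
Zfp42: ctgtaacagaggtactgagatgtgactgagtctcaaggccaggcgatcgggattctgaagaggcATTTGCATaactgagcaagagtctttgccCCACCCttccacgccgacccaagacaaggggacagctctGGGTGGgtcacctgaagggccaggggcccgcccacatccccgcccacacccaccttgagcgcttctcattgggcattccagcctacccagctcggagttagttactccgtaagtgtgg
The motifs were the octamer ATGCAAAT, the orphan nuclear receptor half-site AAGGTCA, the KLF box CCACCC, the STAT palindrome TTCNNNGAA and the Sox motif CATTGTT. The octamer was in the Zfp42 promoter, 186 bases before the start, and in 1.61% of all 27025 promoters of this length. A KLF box was found in Klf2, 19 bases before the start, in Esrrb at 37 and in Zfp42 at 157 and 118, and in 27.7% of all promoters. The STAT palindrome was in Esrrb, 178 bases before the start, and in 7.18% of all promoters, while the half-site and the Sox motif, in 4.05% and 3.36% of promoters, had no match in these windows. Nanog, Klf4 and Tfcp2l1, which the table also holds, had no exact match to any of the 5 in this window. Only exact copies of these strings were searched, so variant sites that differ by a single base would be missed. The absence of a match therefore does not show that a promoter lacks such a site. The matches did not overlap each other. For Klf5, Tbx3, Prdm14 and Dppa3 no promoter is shown.

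**Figure D1:**
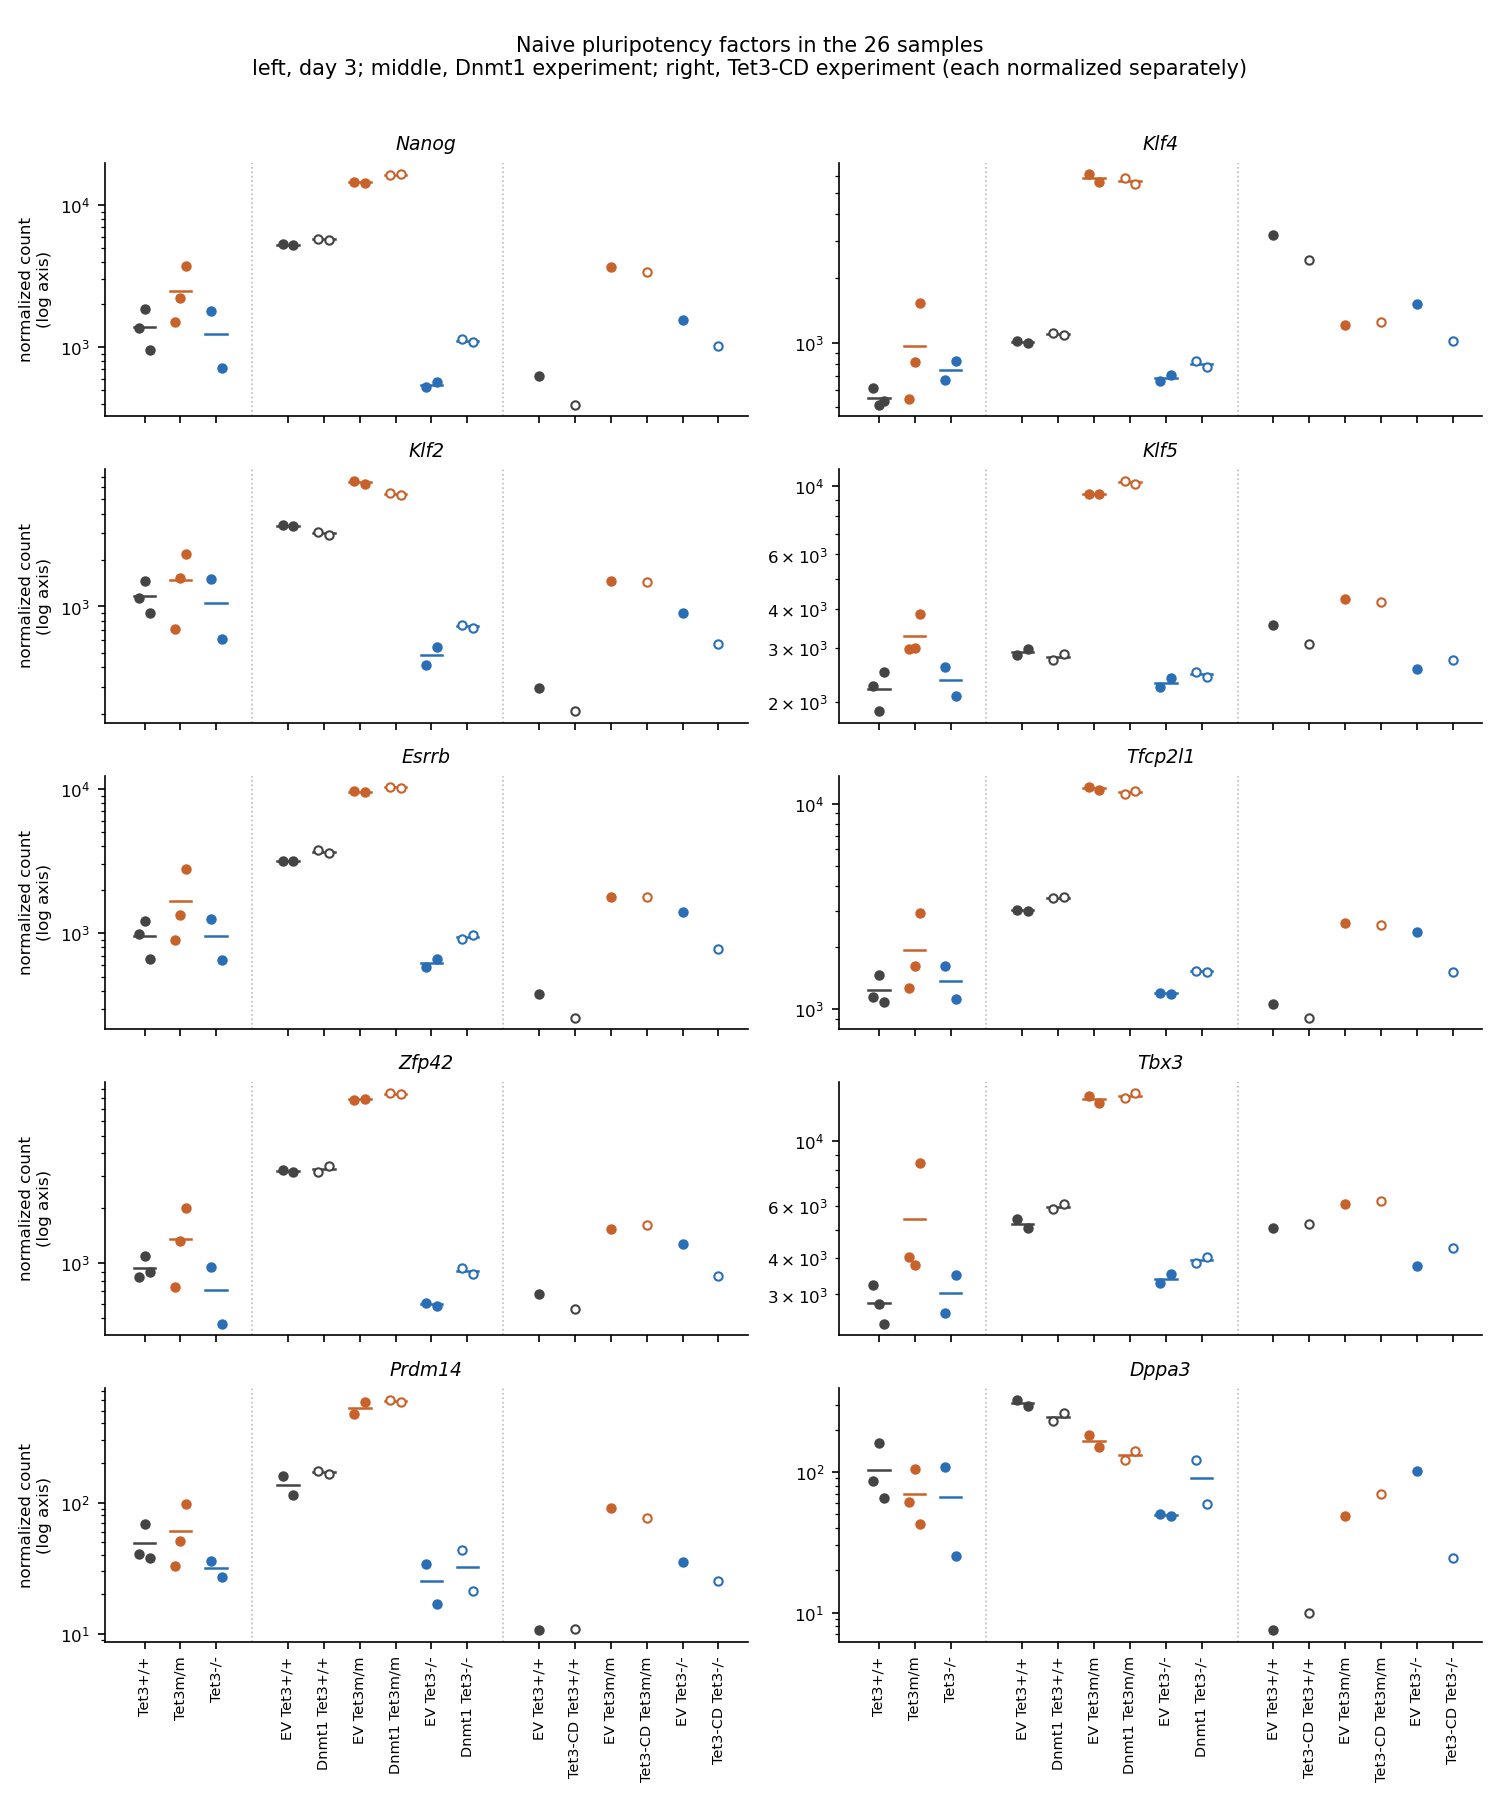
Normalized counts (log axis) of the 10 naive pluripotency factors in all 26 samples, 1 panel per gene. Black is Tet3+/+, orange Tet3m/m and blue Tet3-/-, filled points are untransfected or EV samples, open points Dnmt1 or Tet3-CD samples, and bars are group means where a group has more than 1 sample. The 3 experiments were normalized separately. Day 3 clones of 1 genotype spread widely, while in the Dnmt1 experiment Tet3m/m samples sit above and Tet3-/- samples below Tet3+/+ for 9 of the 10 genes.

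The first comparison asked whether the factors differed between genotypes after 3 days of retinoic acid. On day 3 no member passed the test, which asked for more than a 1.5-fold change at an adjusted p under 0.05, in any of the 3 genotype comparisons, although 10.2% of all genes did so between Tet3m/m and Tet3+/+, 0.642% between Tet3-/- and Tet3+/+ and 9.73% between Tet3-/- and Tet3m/m. By limma with Benjamini-Hochberg adjustment 0 members were called in each, with 3, 0 and 4 at an unadjusted p under 0.05 in the same order, while edgeR and DESeq2 each called 1 member between Tet3m/m and Tet3+/+ and none in the other comparisons. The values of single clones overlapped for 8 of the 10 members in each comparison and did not for 2, while 36.7%, 41.2% and 41.0% of all genes did not overlap, in the same order. In bulk samples, fewer naive cells and less RNA per cell cannot be told apart, here and below.

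Nanog, the homeodomain factor that sustains self-renewal, had 1357, 1856 and 949 normalized counts in the Tet3+/+ clones, 1493, 2219 and 3760.5 in Tet3m/m and 1787 and 709 in Tet3-/-. Esrrb, an orphan nuclear receptor and a Nanog target, read 997, 1226 and 664 in Tet3+/+, 900.3, 1343 and 2783 in Tet3m/m and 1249 and 652 in Tet3-/-. For Tfcp2l1, a grainyhead-like factor downstream of STAT3, the clones gave 1147, 1469 and 1087 in Tet3+/+, 1266, 1629.7 and 2945 in Tet3m/m and 1631 and 1127 in Tet3-/-. In all 3 genes the highest clone was the third Tet3m/m clone, and the remaining clones of the 3 genotypes were interleaved. The log2 difference between Tet3m/m and Tet3+/+ was 0.79 for Nanog (95% interval -0.06 to 1.65), 0.68 for Esrrb (-0.16 to 1.53) and 0.58 for Tfcp2l1 (-0.02 to 1.17). Between Tet3-/- and Tet3+/+ it was -0.25 (-1.20 to 0.70), -0.05 (-0.99 to 0.90) and 0.15 (-0.52 to 0.81). Intervals of this width leave room for changes of 1.5-fold or more in at least 1 direction for each of the 3.

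The KLF zinc-finger proteins bind CACCC elements and overlap in function. Klf2 stood at 1128, 1467 and 908 in Tet3+/+, 714, 1541 and 2208 in Tet3m/m and 1504 and 617 in Tet3-/- clones. Klf4 gave 617, 514 and 534 in Tet3+/+, 547, 816 and 1535 in Tet3m/m and 669 and 825 in Tet3-/-. Klf5 was at 2259, 1874 and 2498 in Tet3+/+, 2972, 3006 and 3848 in Tet3m/m and 2609.8 and 2101 in Tet3-/-. Every Tet3m/m clone exceeded every Tet3+/+ clone for Klf5, and both Tet3-/- clones exceeded the Tet3+/+ clones for Klf4. Klf5 came closest to a call, with a log2 fold change of 0.57 ± 0.14 (SE) in Tet3m/m (adjusted p = 0.0246, limma), just short of the 1.5-fold limit. The limit was passed when Tet3m/m replicate 1, Tet3m/m replicate 2 or Tet3+/+ replicate 3 was left out (0.63, 0.62 and 0.66). Klf4 differed by 0.67 ± 0.29 (SE) in Tet3m/m (adjusted p = 0.162) and by 0.43 ± 0.33 (SE) in Tet3-/- (adjusted p = 0.499).

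Tbx3, a T-box factor that also acts in extraembryonic endoderm, had 3237, 2786 and 2380.0 counts in Tet3+/+, 4036, 3778 and 8422 in Tet3m/m and 2584 and 3492 in Tet3-/-. The 3 Tet3m/m clones were above all others, and among them the third clone stood well above the others. The log2 fold change in Tet3m/m was 0.86 ± 0.26 (SE), with an adjusted p of 0.0544 by limma. Tbx3 passed when counts were tested with edgeR (0.95, adjusted p = 0.0389) but not with DESeq2, and Klf4 passed with DESeq2 (0.80, adjusted p = 0.035) but not with edgeR.

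Zfp42 (Rex1), the zinc-finger gene used as a reporter of the naive state, read 838, 1093 and 889.5 in Tet3+/+, 742, 1325 and 1996 in Tet3m/m and 958 and 465 in Tet3-/-. Prdm14, a repressor of FGF signalling and of de novo methyltransferase genes, was low throughout, at 40.5, 69.1 and 37.6 in Tet3+/+, 32.8, 50.6 and 97.8 in Tet3m/m and 36.1 and 27.3 in Tet3-/-. Dppa3 (Stella), which shields the maternal genome from TET3 in the zygote, gave 85.8, 161 and 65.2 in Tet3+/+, 61.5, 105 and 42.8 in Tet3m/m and 108 and 25 in Tet3-/-. Both Tet3-/- clones lay below the Tet3+/+ clones for Prdm14, and for Zfp42 and Dppa3 the groups overlapped. Adjusted p-values for these 3 genes against Tet3+/+ ran from 0.451 (Zfp42, Tet3m/m, log2 0.42) to 0.803 (Prdm14, Tet3m/m, log2 0.21) in limma.

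The order of the clones within a genotype was shared by most members. Of the 10 members, 9 were highest in the third Tet3m/m clone among the Tet3m/m clones and 8 were lowest in the first, with Dppa3 lowest in the third. The first Tet3-/- clone exceeded the second for 8 members, and the order was the opposite for Klf4 and Tbx3. The share of all genes with these orders was not counted. Tet3m/m replicates 1 and 3 were the day 3 pair that differed most over all genes (mean chi-square per gene 87.2). With Tet3m/m replicate 1 left out, Klf4, Klf5 and Tbx3 passed in Tet3m/m (log2 1.02, 0.63 and 1.02), and Zfp42 passed as lower in Tet3-/- than in Tet3m/m (log2 -1.28, adjusted p = 0.0212, limma). With the highest clone, Tet3m/m replicate 3, left out the same 3 genes stood at 0.27, 0.45 and 0.49 and none passed, Nanog and Esrrb stood at 0.45 and 0.24, and Klf2 and Prdm14 changed sign, to -0.13 and -0.21. Without Tet3m/m replicate 2, Tbx3 passed as well as Klf5 (1.07). The median log2 fold change of the 10 without Tet3m/m replicate 3 was 0.23 in Tet3m/m. With all clones it was 0.57 in Tet3m/m and -0.15 in Tet3-/-, against 0.00 and -0.01 over all genes tested. Chromosome 8, which carries Klf2 and Zfp42, was low as a whole in Tet3m/m, with a median of -0.34 over 864 genes, and chromosome 6, which carries Nanog and Dppa3, had a median of -0.22 over 798 genes. The 49 genes nearest to Nanog had a median of 0.06, and the part of chromosome number in these values was not tested.

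Related genes gave more calls on day 3 than the members. Of 16 other naive-state genes 6 rose in Tet3m/m, led by Dppa2 (1.53) and Dppa5a (1.32), and 7 were lower in Tet3-/- than in Tet3m/m, led by Gbx2 (-1.89) and Dppa5a (-1.86). Sall4, a zinc-finger partner of OCT4, was the 1 core gene of 5 that rose in Tet3m/m (0.81). Among 12 formative and primed genes Sox3 (-1.24) and Zic2 (-1.15) fell in Tet3m/m, and of 9 repressors and drivers of exit only Tcf7l1 did (-0.62). Of 13 genes of the LIF-JAK-STAT3 pathway, the STAT3 target Pim1 rose in Tet3m/m (0.63) and Junb in Tet3-/- (1.19). Over all 17915 genes tested, 907 were called higher and 929 lower in Tet3m/m, and 82 higher and 33 lower in Tet3-/-. Against Tet3m/m, 969 were called higher and 775 lower in Tet3-/-. The summed extraembryonic endoderm markers ran from 8378 to 9097 in Tet3+/+, 9631 to 13237 in Tet3m/m and 7542 to 10132 in Tet3-/- clones, with 9 of 10 listed and Apoa1 not. The fibroblast sums were 19885 to 30627, 16126 to 25482 and 44790 to 49986, and the trophoblast sums 55655 to 79772, 44308 to 94253 and 115231 to 133944. Col1a1 made up 43% of the fibroblast sum. Of the 8 fibroblast genes, 4 were higher and 4 lower in Tet3m/m than in Tet3+/+ (2 called higher, 0 lower). In Tet3-/- 7 were higher and 1 lower than in Tet3+/+ (0 called). Krt8 and Krt18 made up 54.4% and 41.7% of the trophoblast sum, and against Tet3+/+ 5 of the 8 trophoblast genes were higher and 3 lower in Tet3-/-, with none called by limma. Of the 9 endoderm genes, 8 were higher and 1 lower in Tet3m/m than in Tet3+/+ (median log2 0.65, 2 called higher). In Tet3-/- 3 were higher and 6 lower than in Tet3+/+ (median -0.91, 0 called). Against Tet3m/m, 2 were higher and 7 lower in Tet3-/- (median -1.39, 6 called lower). The part of such cells in the members' day 3 values was not tested.

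**Figure D2:**
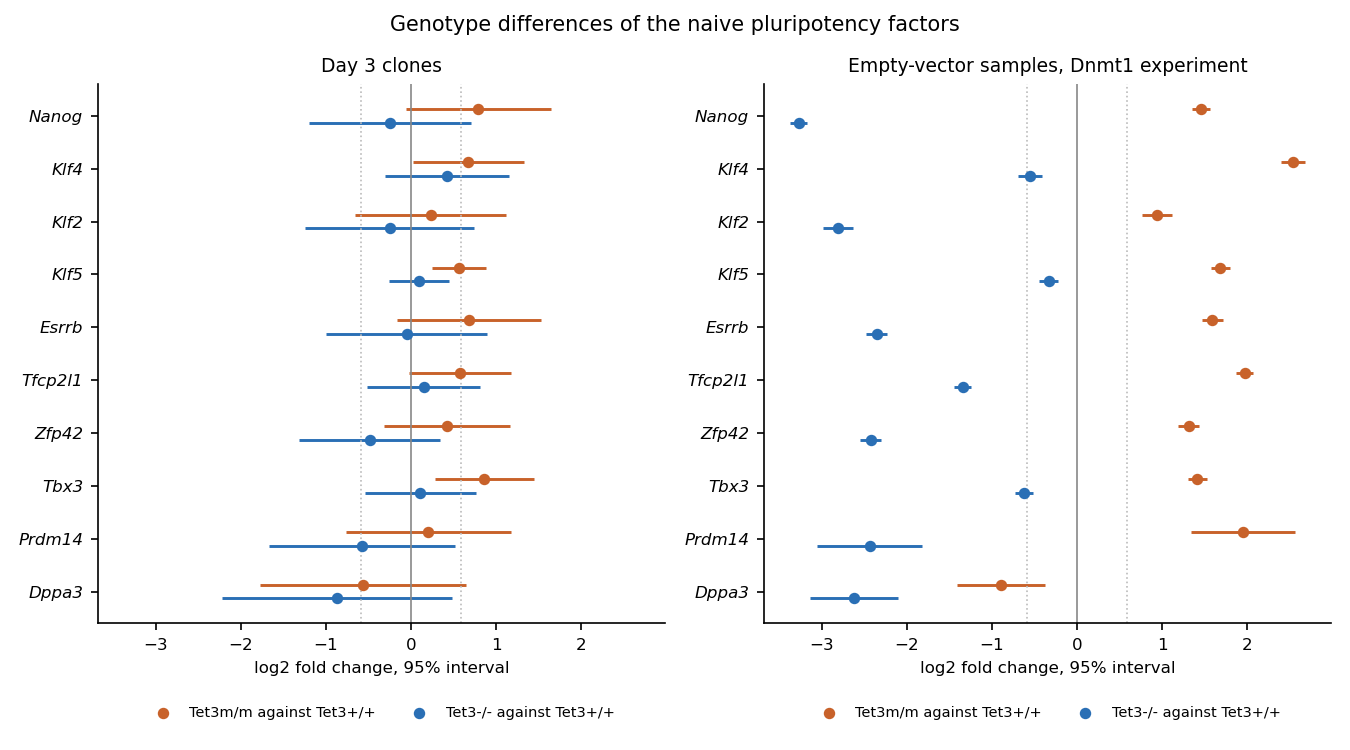
Log2 fold change of each factor against Tet3+/+ (points) with its 95% interval (lines) in Tet3m/m (orange) and Tet3-/- (blue), for day 3 clones on the left and EV samples of the Dnmt1 experiment on the right. Dotted lines mark 1.5-fold. Most day 3 intervals include 0, whereas in the EV samples the 2 mutants lie on opposite sides of 0 for every factor except Dppa3.

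EV samples of the Dnmt1 experiment gave the second genotype comparison. Here the factors separated strongly and in opposite directions: in Tet3m/m 9 members rose and Dppa3 fell, whereas in Tet3-/- 8 members fell and Klf4 and Klf5 were lower by less than 1.5-fold. Of all genes 10.3% were called higher and 10.9% lower in Tet3m/m, and 13.9% were called lower in Tet3-/-. Samples of the groups did not overlap for any member. Of all genes, 36.3% were higher and 36.1% lower in both Tet3m/m samples than in both Tet3+/+ samples, 38.3% were lower in both Tet3-/- samples than in Tet3+/+ and 41.8% lower than in Tet3m/m. All 10 members were lower in Tet3-/- than in Tet3m/m, with log2 fold changes of -1.72 (Dppa3) to -4.72 (Nanog), where 20.6% of all genes were called lower.

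Nanog had 5286 and 5275 normalized counts in the EV Tet3+/+ samples, 14643 and 14297 in Tet3m/m and 526 and 567 in Tet3-/-. Esrrb stood at 3179.9 and 3167 in Tet3+/+, 9616 and 9517 in Tet3m/m and 581 and 660.2 in Tet3-/-. Tfcp2l1 was at 3057 and 3019.6 in Tet3+/+, 12083 and 11739 in Tet3m/m and 1202 and 1192 in Tet3-/-. The Tet3-/- level was 10.3% of the Tet3+/+ mean for Nanog, 19.6% for Esrrb and 39.4% for Tfcp2l1, and Nanog was the member that fell most in Tet3-/- cells. Nanog rose by 1.45 ± 0.0503 (SE) on the log2 scale in Tet3m/m (adjusted p = 1.11e-15) and fell by 3.27 ± 0.0503 (SE) in Tet3-/- (adjusted p = 2.97e-21, limma, n = 2 per group). Esrrb changed by 1.59 and -2.35 and Tfcp2l1 by 1.97 and -1.34, each with an SE of 0.061 or less.

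Klf2, which with Klf4 and Klf5 supports the circuit, read 3377 and 3328 in Tet3+/+, 6615 and 6275 in Tet3m/m and 416 and 546 in Tet3-/-. Klf4 gave 1016 and 1003 in Tet3+/+, 6126 and 5646 in Tet3m/m and 667 and 708 in Tet3-/-. Klf5 was at 2852 and 2979 in Tet3+/+, 9367 and 9395 in Tet3m/m and 2236 and 2394 in Tet3-/-. The 3 genes ranked differently in the mutants. Klf4 rose most of all members in Tet3m/m (log2 2.54 ± 0.0676) and Klf2 least of those that rose (0.94 ± 0.0839). In Tet3-/- cells Klf2 fell by 2.81 ± 0.0839 (SE), while Klf4 differed by -0.56 and Klf5 by -0.33, with adjusted p-values of 5.78e-07 and 1.39e-05 (limma) but folds under 1.5. With Tet3-/- replicate 2 left out Klf4 passed as well (-0.60).

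Tbx3 levels were 5417 and 5050.0 in Tet3+/+, 14336 and 13570.3 in Tet3m/m and 3275 and 3514 in Tet3-/-. It rose by 1.41 ± 0.0519 (SE) in Tet3m/m and fell by 0.62 ± 0.0519 (SE) in Tet3-/-, and the second value dropped to -0.57, under the fold limit, without Tet3-/- replicate 1 or without Tet3+/+ replicate A. Zfp42 moved from 3236 and 3158 in Tet3+/+ to 7887 and 7996 in Tet3m/m and 607 and 583 in Tet3-/-, a log2 change of 1.31 and -2.42. Tbx3, Klf4 and Klf5 were the members least reduced in Tet3-/- cells, at 64.9%, 68.1% and 79.4% of the Tet3+/+ mean, against 10.3% to 39.4% for the other 7.

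Prdm14 was at 158 and 115 in Tet3+/+, 474 and 578 in Tet3m/m and 34.1 and 16.9 in Tet3-/-. Its log2 change was 1.95 ± 0.30 (SE) in Tet3m/m and -2.44 ± 0.30 (SE) in Tet3-/-, the widest error of the list. Dppa3 read 326 and 292 in Tet3+/+, 182 and 151 in Tet3m/m and 50.3 and 48.7 in Tet3-/-. Dppa3 alone fell in both mutants, by 0.89 ± 0.25 (SE) in Tet3m/m (adjusted p = 0.00526) and by 2.62 ± 0.25 in Tet3-/- (adjusted p = 1.54e-08, limma). The fall in Tet3m/m no longer passed without Tet3+/+ replicate A (-0.81, adjusted p = 0.0505) or without Tet3m/m replicate 2 (-0.76, adjusted p = 0.0587).

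Per kilobase of merged exon (GENCODE M21), the order of the levels differed by genotype. Nanog led in EV Tet3+/+ samples at 2355 normalized counts per kb, followed by Klf2 at 1815 and Zfp42 at 1699.6. Nanog also led in Tet3m/m, at 6454, with Zfp42 next at 4222. In Tet3-/- samples Tbx3 led at 512 per kb and Klf5 came next at 445, while Nanog, at 244, was below both. Prdm14 was last in Tet3+/+ and Tet3-/-, at 53.2 and 9.95 per kb, and Dppa3 was last in Tet3m/m at 187.

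Other genes of the naive network moved with the members in these EV samples. Of 16 other naive-state genes, 13 rose in Tet3m/m (median log2 1.19), led by Jam2 (2.57) and Gbx2 (1.83), and 14 fell and 1 rose in Tet3-/- (median -2.42), led by Fgf4 (-3.84), which feeds ERK signalling, and Tcl1 (-3.72). Mras, a small GTPase, was the 1 that rose (1.13). All 5 core pluripotency genes did the same, rising in Tet3m/m (median 1.23) and falling in Tet3-/- (median -2.56), with Pou5f1, which encodes OCT4, at 1.32 and -3.07. Over all genes tested the medians were 0.01 and 0.00. Formative and primed genes were mixed: 5 of 12 rose and 1 fell in Tet3m/m (median 0.39), and 1 rose and 5 fell in Tet3-/- (median -0.44), Otx2 changing by 2.94 and -2.86. Of 13 genes of the LIF-JAK-STAT3 pathway, 1 rose and 1 fell in Tet3m/m, and 5 rose and 2 fell in Tet3-/-, where Junb (1.26) and the co-receptor gene Il6st (1.00) were higher and the STAT3 target Pim1 was lower (-1.06). Among 9 repressors and drivers of exit 1 fell in Tet3m/m, Tcf7l1, the repressor of Esrrb (-0.78). Over all 18055 genes tested, 1862 were called higher and 1969 lower in Tet3m/m, and 1993 higher and 2511 lower in Tet3-/-.

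Markers of other lineages differed between the same groups. Summed over 10 genes of extraembryonic endoderm, led by Dab2, the EV samples reached 18043 to 18476 in Tet3+/+, 46150 to 48254 in Tet3m/m and 9733 to 10184 in Tet3-/-, where Afp and Apoa1 averaged under 10. In Tet3m/m 9 of the 10 rose, and in Tet3-/- 8 fell and 1 rose. The neuroectoderm sum was 27196 to 28104, 19961 to 20701 and 33026 to 34889, and the 8 fibroblast genes, which would mark feeder cells, summed to 21854 to 23958, 12631 to 12678 and 39478 to 39553. Trophoblast genes summed to 47734 to 47965, 20154 to 22461 and 97012 to 100627, of which Krt8 and Krt18 made up 54.7% and 37.3% over the experiment. The germ cell list, which includes Prdm14 and Dppa3, summed to 9707 to 9985, 17480 to 17883 and 3494 to 3613. Single genes did not always follow their sum. Against Tet3+/+, 2 trophoblast genes were called higher and 3 lower in Tet3-/-, and 1 higher and 5 lower in Tet3m/m. For fibroblast genes it was 3 and 1 in Tet3-/- and 2 and 5 in Tet3m/m. For neuroectoderm genes it was 4 and 2 in Tet3-/- and 0 and 8 in Tet3m/m. Germ cell genes gave 0 and 9 in Tet3-/- and 5 and 2 in Tet3m/m. Chromosome 8 as a whole was lower in both mutants, with a median log2 of -0.45 in Tet3m/m and -0.38 in Tet3-/- over 879 genes. Klf2 and Zfp42, which lie on it, rose in Tet3m/m against that background. The part of these cell types and of chromosome number in the members' values was not tested.

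The next question was whether Dnmt1 changed the factors within a genotype. The Dnmt1 gene itself went from 14678 and 15225 with EV to 22799 and 23768 with the vector in Tet3+/+, from 11934 and 11285 to 20244 and 23211 in Tet3m/m and from 17356 and 17554 to 33380.5 and 39854 in Tet3-/-, and it rose in all 3 (log2 0.64, 0.90 and 1.06). Its rise was larger in Tet3-/- than in Tet3+/+ cells by 0.42 ± 0.0921 (± SE, adjusted p = 0.00502, limma interaction). With limma 0 members passed in Tet3+/+ and 0 in Tet3m/m, where 1.17% and 2.46% of all genes were called. At an unadjusted p under 0.05 there were 4 and 3, and edgeR and DESeq2 called 0 in both. In Tet3-/- cells 5 members rose and none fell, and 2.51% of all genes were called higher. Leaving out EV Tet3-/- replicate 1 left 2 of the 5 called, Nanog and Zfp42, and leaving out EV Tet3-/- replicate 2 or Dnmt1 Tet3-/- replicate 1 left 3.

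**Figure D3:**
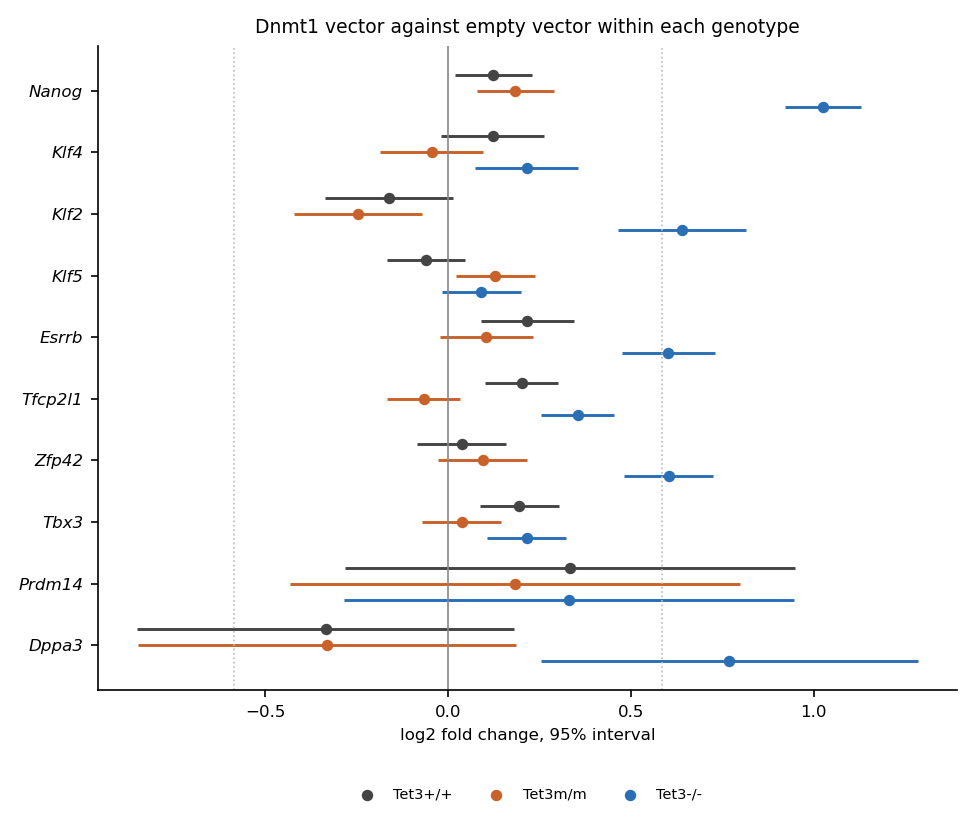
Log2 fold change of each factor with Dnmt1 against EV (points) and its 95% interval (lines) in Tet3+/+ (black), Tet3m/m (orange) and Tet3-/- (blue) cells, n = 2 per group. Dotted lines mark 1.5-fold. Nanog, Dppa3, Klf2, Zfp42 and Esrrb lie to the right of 1.5-fold in Tet3-/- cells, and no factor does in the other genotypes.

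In Tet3-/- cells Nanog read 526 and 567 with EV and 1134 and 1092 with Dnmt1. Klf2 moved from 416 and 546 to 762 and 725. Esrrb moved from 581 and 660.2 to 910.1 and 972. Both Dnmt1 samples were above both EV samples for each, as for 27.3% of all genes, and Nanog had the largest rise of all members at 1.03 ± 0.0503 (SE), with an adjusted p of 9.52e-11 in limma. The others rose by less, Klf2 by 0.64 ± 0.0839 (SE) and Esrrb by 0.60 ± 0.061 (SE). Zfp42 went from 607 and 583 to 941 and 869.9 (0.60 ± 0.0583, ± SE). Dppa3 went from 50.3 and 48.7 to 121 and 59.5, with the Dnmt1 samples far apart. Its log2 change of 0.77 ± 0.25 (adjusted p = 0.0438) no longer passed without Dnmt1 Tet3-/- replicate 1 (0.26, adjusted p = 0.509), and Dppa3 kept its call only when Dnmt1 Tet3-/- replicate 2 was the sample left out.

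The other 5 members changed less in Tet3-/- cells. Tfcp2l1 read 1202 and 1192 and then 1536 and 1523 (0.35 ± 0.0485, adjusted p = 4.55e-05), a fold under 1.5. Tbx3 went from 3275 and 3514 to 3848 and 4031 (0.22), and Klf4 from 667 and 708 to 827 and 769 (0.22). Klf5, which went from 2236 and 2394 to 2513 and 2417, had the smallest difference (0.09, 95% interval -0.02 to 0.20), and Prdm14 overlapped between vectors (34.1 and 16.9 against 43.4 and 21.4). Without the fold limit 8 members passed in Tet3-/- (13.4% of all genes), 3 in Tet3+/+ (5.59%) and 1 in Tet3m/m (10.2%). The Tet3-/- samples stayed far below Tet3+/+ with either vector: Nanog went from 10.3% to 21.1% of the EV Tet3+/+ mean, Klf2 from 14.3% to 22.2%, Esrrb from 19.6% to 29.7% and Zfp42 from 18.6% to 28.3%.

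The values in Tet3+/+ cells with Dnmt1 were close to those with EV. Nanog read 5804 and 5698 with Dnmt1 (log2 0.12, 95% interval 0.02 to 0.23), Esrrb 3801 and 3578 (0.22, 0.09 to 0.34) and Klf2 3049 and 2944 (-0.16, -0.34 to 0.01). Tfcp2l1 (0.20) and Tbx3 (0.19) had, with Esrrb, adjusted p-values under 0.05 without reaching 1.5-fold. The intervals of 8 members in Tet3+/+ cells ended below 1.5-fold in both directions. Those of Prdm14 (-0.28 to 0.95) and Dppa3 (-0.85 to 0.18) did not.

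Tet3m/m cells gave 16384 and 16482 for Nanog with Dnmt1 (log2 0.18, adjusted p = 0.022, limma), 5492 and 5369 for Klf2 (-0.25) and 11149 and 11586 for Tfcp2l1 (-0.07). Klf4 read 5893 and 5515 (-0.04) and Dppa3 122 and 141 (-0.33). Levels above Tet3+/+ were seen with Dnmt1 too, Nanog being at 311% of the EV Tet3+/+ mean and Klf4 at 565%.

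The difference between genotypes in the response to Dnmt1 was tested as an interaction, called at an adjusted p under 0.05. It was larger in Tet3-/- than in Tet3+/+ cells for 4 members, where 5.24% of all genes were called in that direction: Nanog by 0.90 ± 0.0711 (± SE, adjusted p = 1.05e-07), Klf2 by 0.80 ± 0.12 (1.60e-04), Zfp42 by 0.57 ± 0.0825 (1.37e-04) and Esrrb by 0.39 ± 0.0862 (0.00626). Dppa3 had the largest difference, 1.10 ± 0.35 (SE), and missed the threshold (adjusted p = 0.0504 in limma, 0.0166 in edgeR and 0.0101 in DESeq2). Tbx3 (0.02, 95% interval -0.13 to 0.17) and Klf4 (0.09, -0.11 to 0.29) differed least among the well-measured members. Between Tet3m/m and Tet3+/+ 0 members were called by limma (3 at an unadjusted p under 0.05), against 1.31% of all genes, while edgeR and DESeq2 each called 1, Tfcp2l1. It came nearest in limma too, with a response lower in Tet3m/m by 0.27 ± 0.0686 (SE, adjusted p = 0.0582 in limma and 0.0441 in edgeR).

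Among the wider lists in Tet3-/- cells, 6 of 16 other naive-state genes rose with Dnmt1 (median log2 0.47, against 0.01 over all genes), led by Fbxo15 (1.10) and Dppa2 (1.09), and Pou5f1 rose among the 5 core genes (0.69). Among 12 formative and primed genes Zic2 (0.62) and the ETS factor gene Etv4 (0.61) rose in Tet3+/+ and Lef1 (0.99) in Tet3m/m cells. In Tet3-/- cells 3 of the 12 were higher and 9 lower with Dnmt1 (median -0.18, 0 called). By the interaction test 4 of them responded lower, and 0 higher, in Tet3-/- than in Tet3+/+. Of 8 fibroblast genes, 0 were called higher and 2 lower with Dnmt1 in Tet3-/-, and 4 higher and 0 lower in Tet3m/m. Over all 18055 genes tested, 76 were called higher in Tet3+/+, 321 in Tet3m/m and 453 in Tet3-/- cells. The summed levels of the neuroectoderm list in Tet3-/- cells went from 33026 to 34889 with EV to 40178 to 42990 with Dnmt1, those of trophoblast from 97012 to 100627 to 115861 to 137491 and those of extraembryonic endoderm from 9733 to 10184 to 9593 to 9890. Of the 11 neuroectoderm genes 4 were higher and 7 lower with Dnmt1 (median -0.03), Cyp26a1 being the 1 called (0.83), and 6 of 8 trophoblast genes were higher and 2 lower (1 called). The part of these shifts, and of the larger rise of Dnmt1 itself in Tet3-/-, in the members' response was not tested.

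In the Tet3-CD experiment, in which the domain was put back to ask whether the expression changes of the mutants go with loss of TET3, each group had 1 sample, so ratios are given with 95% intervals for counting error only and no test. Among EV samples, 7 of the 10 members were more than 1.5-fold higher in Tet3m/m than in Tet3+/+, and 1, Klf4, was lower, against 20.2% and 16.1% of all genes past the same fold in each direction. The same 7 were higher and Klf4 lower in Tet3-/-, against 15.4% and 11.7% of all genes. Klf5 and Tbx3 stayed within 1.5-fold in both.

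Nanog had 626 normalized counts in EV Tet3+/+, 3655 in EV Tet3m/m and 1552 in EV Tet3-/-. Esrrb had 380.3, 1793 and 1395, and Klf2 295, 1469 and 905. Tfcp2l1 was at 1066, 2636 and 2368, and Zfp42 at 678, 1539.9 and 1271. For all 5 the Tet3+/+ sample was the lowest and the Tet3m/m sample the highest, with log2 ratios of 1.18 (Zfp42) to 2.54 (Nanog) in Tet3m/m and 0.90 (Zfp42) to 1.87 (Esrrb) in Tet3-/-. Klf4 ran the other way, from 3206 in Tet3+/+ to 1207 and 1512 in the mutants (log2 -1.41, 95% interval -1.505 to -1.315, and -1.08, -1.175 to -0.995). Klf5 read 3553, 4321 and 2558, and Tbx3 5075, 6127 and 3744. Prdm14 and Dppa3 were near the floor in Tet3+/+, with 10 and 7 reads, and had 91.2 and 48.4 normalized counts in Tet3m/m and 35.1 and 102 in Tet3-/-.

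For Tet3-/- against Tet3+/+, the direction in these EV samples was opposite to that in the EV samples of the Dnmt1 experiment for Nanog, Klf2, Esrrb, Tfcp2l1, Zfp42, Prdm14 and Dppa3. Nanog stood at log2 1.31 here and -3.27 there, and Esrrb at 1.87 and -2.35. The 2 experiments differed in vector, in the day of transfection, in selection and in time of collection, were normalized separately, and their difference was not tested. The EV Tet3+/+ sample of the Tet3-CD experiment also had the highest summed level of extraembryonic endoderm genes of its experiment, 54778, against 13397 in EV Tet3m/m and 15388 in EV Tet3-/-. Its trophoblast sum was the lowest, 38045 against 105911 and 86197. Krt8 and Krt18 made up 56.8% and 37.6% of that sum over the experiment, and Dab2 made up 37% of the endoderm sum. The part of any such cells in the ratios was not tested.

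**Figure D4:**
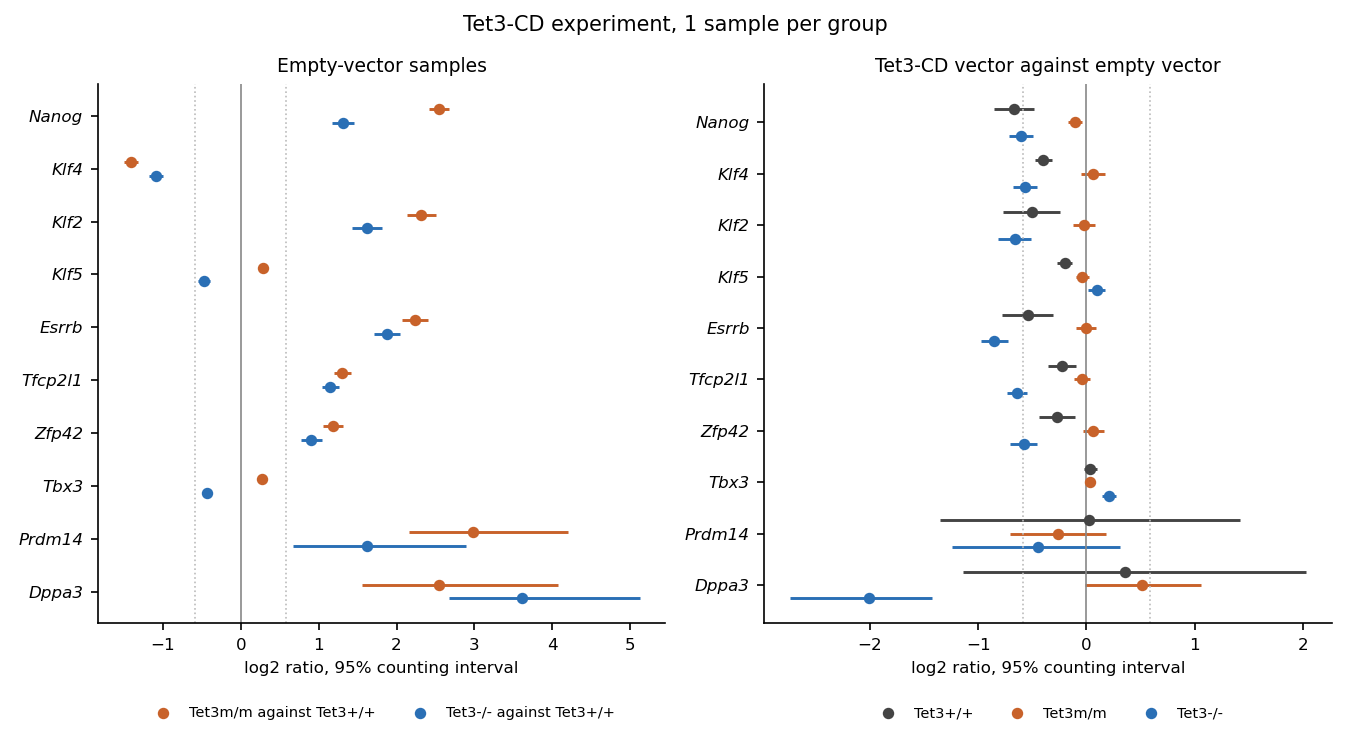
Log2 ratios of normalized counts in the Tet3-CD experiment (1 sample per group) with 95% intervals for counting error. On the left, EV Tet3m/m (orange) and EV Tet3-/- (blue) against EV Tet3+/+. On the right, Tet3-CD against EV within Tet3+/+ (black), Tet3m/m (orange) and Tet3-/- (blue). Dotted lines mark 1.5-fold. Klf4 lies opposite to Nanog, Klf2 and Esrrb on the left, and on the right Tet3m/m ratios of the well-measured factors lie near 0.

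The Tet3 gene count rose with the vector from 4755 to 5441 in Tet3+/+, from 1849.9 to 5232 in Tet3m/m and from 2069.8 to 2759 in Tet3-/-, the catalytic domain being counted within the gene. Only 1 member, Nanog, was past 1.5-fold with Tet3-CD in Tet3+/+ (lower, against 7.3% of all genes), 0 in Tet3m/m (against 10.1% of all genes in either direction) and 5 in Tet3-/- (all lower, against 11.6% of all genes). In Tet3-/- cells Nanog went from 1552 to 1021 (log2 -0.60, -0.72 to -0.49), Esrrb from 1395 to 774 (-0.85, -0.98 to -0.72) and Klf2 from 905 to 571 (-0.66, -0.82 to -0.52). Tfcp2l1 went from 2368 to 1518 (-0.64) and Dppa3 from 102 to 24.6 (-2.01, -2.74 to -1.42). The lower levels did not extend to Klf5 (2558 and 2734) or Tbx3 (3744 and 4320.2), while Klf4 (-0.57) and Zfp42 (-0.58) stopped just short of 1.5-fold. Over the same pair of samples the neuroectoderm sum went from 18176 to 31100 and the extraembryonic endoderm sum from 15388 to 9979, whose part was not tested. Nes and Cyp26a1 made up 33.5% and 28.8% of the neuroectoderm sum over the experiment.

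In Tet3+/+ cells Nanog went from 626 to 393 with Tet3-CD (-0.67, -0.86 to -0.49), Esrrb from 380.3 to 261 (-0.54) and Klf4 from 3206 to 2431 (-0.40). In Tet3m/m cells the same genes went from 3655 to 3406, from 1793 to 1786 and from 1207 to 1257. Of the 8 members other than Prdm14 and Dppa3, the largest log2 ratio in size was -0.10 (Nanog) in Tet3m/m cells, where the count of Tet3 rose most. With a limit of 2-fold, 0 members in Tet3+/+ and 1 in Tet3-/- (Dppa3) were past it, against 3.2% and 4.95% of all genes lower by that much.

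Across all 26 samples, each centred on the mean of its experiment, the members formed no single block. Nanog, Esrrb, Klf2, Zfp42, Prdm14 and Tfcp2l1 followed each other closely, with Pearson r of 0.918 to 0.988 over their 15 pairs. Klf4, Klf5 and Tbx3 followed each other at 0.891 to 0.924. Between these sets, which were chosen after the values were seen, r ran from 0.562 (Klf2 with Klf4) to 0.888 (Tbx3 with Tfcp2l1), and Dppa3 had r of 0.451 to 0.707 with the first set and -0.066 to 0.092 with the second. The points share genotype, vector and experiment, so these values are descriptions only.

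**Figure D5:**
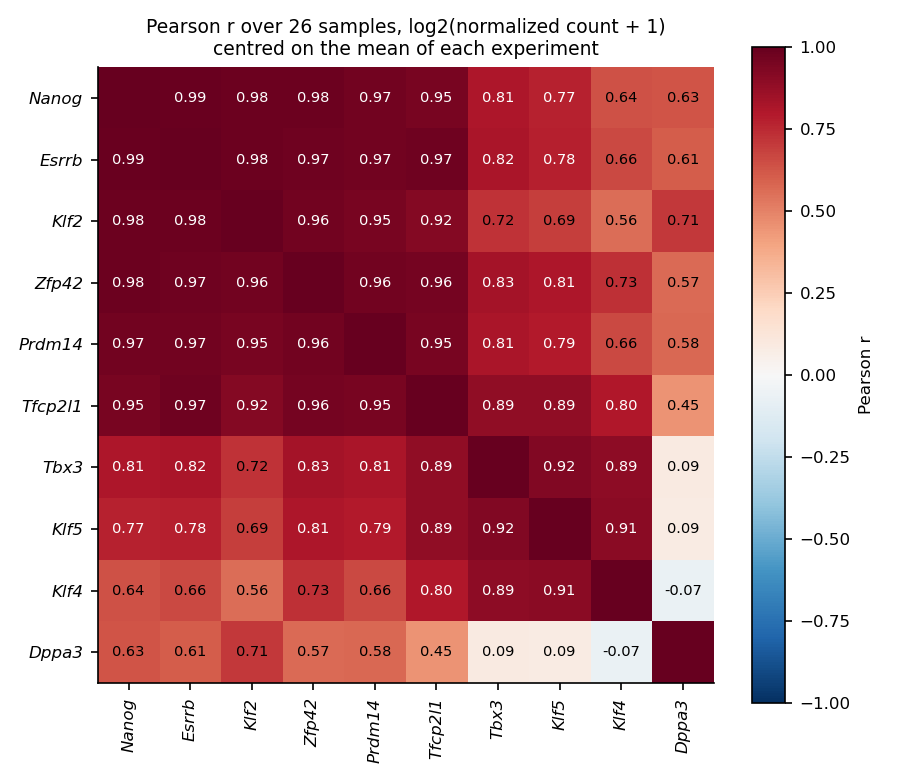
Pearson r between the naive pluripotency factors over the 26 samples, computed on log2(normalized count + 1) centred on the mean of each experiment. Red is positive and blue negative, and each cell prints its r. Nanog, Esrrb, Klf2, Zfp42, Prdm14 and Tfcp2l1 form a block above 0.91, Tbx3, Klf5 and Klf4 a second block, and Dppa3 stands apart with a highest r of 0.707.

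Among the 16812 genes tested in all 3 experiments, the 3 closest to each member in this pattern were named. Pou5f1 was the closest to Nanog (r = 0.992) and to Klf2 (0.982), and it was among the closest 3 for Esrrb (0.983), Zfp42 (0.986) and Prdm14 (0.968) too. Nanog and Esrrb were each within the other's closest 3 (0.988), beside Pecam1 for Nanog (0.987) and Jarid2, a Polycomb cofactor, for Esrrb (0.980). Zfp42 was closest to Utf1 (0.988) and followed Nr0b1 (0.979), and Prdm14 was closest to Nfatc2ip (0.971) and Nr0b1 (0.969). Tfcp2l1 was nearest to Jarid2 (0.981), Mpv17l (0.978) and Zbtb44 (0.976), and Klf2 had Nanog (0.981) and Esrrb (0.977) after Pou5f1.

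The second set had other neighbours. Klf5 was closest to Pcyt1b (0.970), Tlr2 (0.968) and Zfp57 (0.967), an imprint-maintaining factor, and Tbx3 was closest to Zfp57 too (0.961), then Sfrp5 (0.960) and Tmtc1 (0.959). For Klf4 the nearest were Slc26a2 (0.961), Piga (0.956) and Gm15726 (0.955). Dppa3 had the weakest neighbours, AA467197 (0.903), Cd37 (0.839) and Atmin (0.834).

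Summed levels of the marker lists lined up with the members in the same description. Extraembryonic endoderm had an r of 0.908 with Klf4, 0.748 with Tbx3 and 0.743 with Klf5, against 0.479 with Nanog, 0.458 with Esrrb and 0.396 with Klf2. The 5 core pluripotency genes had 0.977 with Zfp42, 0.938 with Nanog and 0.788 with Klf4. Positive r was not particular to them. Formative and primed genes had 0.265 (Dppa3) to 0.822 (Zfp42) and repressors and drivers of exit 0.526 (Dppa3) to 0.814 (Tfcp2l1). Germ cell genes, summed without Prdm14 and Dppa3, had 0.423 (Dppa3) to 0.923 (Zfp42). Fibroblast markers ran against every member, from -0.446 (Dppa3) to -0.900 (Zfp42). The same held for neuroectoderm markers, from -0.385 (Dppa3) to -0.701 (Tfcp2l1), and trophoblast markers, from -0.102 (Dppa3) to -0.862 (Klf4). Genes of the LIF-JAK-STAT3 pathway also ran against every member, from -0.381 (Klf5) to -0.687 (Zfp42). All of these r values are for sums, which single genes did not always follow. Krt8 and Krt18 made up 54.4% and 41.7% of the trophoblast sum on day 3. In EV Tet3-/- samples of the Dnmt1 experiment 2 trophoblast genes were called higher and 3 lower than in Tet3+/+. In EV Tet3m/m samples 2 fibroblast genes were called higher and 5 lower.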

How the data were processed

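Bulk RNA-seq of 26 samples from 3 experiments was used, and samples were grouped by genotype and vector from the labels. The deposited values are a signal made by the authors from gene counts divided by DESeq2 size factors, after Trim Galore 0.6.7, STAR 2.7.9a and featureCounts with the largest overlap. The study's methods give mm39, while the submitters' processing notes list mm10 without a role. Each table was normalized on its own. Every value was within 0.01 of a whole multiple of 1 read, so whole reads were recovered, 31155842 to 50845950 per sample, and shares and intervals from them cover counting error only. Strand use in counting is not given in the sources used here, so genes and antisense partners cannot be told apart.

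The members and lists were chosen with earlier results of these data known. Genes with a mean of at least 10 were tested with limma 3.58.1 (R 4.3.3, trended empirical Bayes) on log2(value + 1), a scale that understates changes of low genes, with all groups of an experiment in 1 fit and Benjamini-Hochberg adjustment over all genes tested. A gene was called at an adjusted p under 0.05 and a fold above 1.5, and an interaction at an adjusted p under 0.05 alone. The Tet3-CD experiment has 1 sample per group and was given as ratios with exact Clopper-Pearson intervals (SciPy 1.17.1). The fit was tested on simulated data. All 10 members, Tet3 and Dnmt1 are named in the comparisons, from each other list at most 2 genes called per direction, taken by size of change, and for each member the 3 genes with the nearest pattern.

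The 2 EV Tet3+/+ columns of the Dnmt1 experiment carry the same header with no replicate number and are called replicates A and B. Alternatives were edgeR 4.0.16 and DESeq2 1.42.0 on the recovered reads, TMM rescaling, pseudocounts of 0.1 and 5, a mean of at least 50 or no filter, only the compared groups, no fold limit (2-fold in the Tet3-CD experiment), a replicate block and each replicate left out. Promoters and motifs came from RefSeq tables on GRCm38.p6, in which 6 of the 10 members matched.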

Additional observations from a re-analysis of the deposited data

Results flagged for a closer look

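The response to Dnmt1 was larger in Tet3-/- than in Tet3+/+ cells for 4 members, by the limma interaction test. The difference was 0.90 for Nanog, 0.80 for Klf2, 0.57 for Zfp42 and 0.39 for Esrrb on the log2 scale, with both Dnmt1 samples above both EV samples of Tet3-/- in each. The vector's own gene also rose more in Tet3-/- cells, by 0.42, and the part of that in the members' response was not tested.

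EV Tet3-/- cells stood below EV Tet3+/+ cells in the Dnmt1 experiment and above them in the Tet3-CD experiment for 7 members. Nanog had a log2 difference of -3.27 in the first and 1.31 in the second. Klf2 gave -2.81 and 1.61, Esrrb -2.35 and 1.87, and Tfcp2l1 -1.34 and 1.15. Zfp42 gave -2.42 and 0.90, Prdm14 -2.44 and 1.63, and Dppa3 -2.62 and 3.61. Prdm14 and Dppa3 were near the floor in EV Tet3+/+ of the second experiment, with 10 and 7 reads. The second experiment has 1 sample per group, the experiments differ in transfection day, selection and collection time, and the difference between them was not tested.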

How the results depend on the processing

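No member called in a comparison changed sign under an alternative, but 22 differences that were not called did, 43 times in all and 37 of these with a replicate left out. On day 3, between Tet3m/m and Tet3+/+, 0 members were called, but 1 was with edgeR, DESeq2, a pseudocount of 5 or no fold limit, and 0 to 3 with a replicate left out. Between Tet3-/- and Tet3m/m leaving out a replicate gave 0 to 1. With Dnmt1 in Tet3-/- cells the 5 called became 8 without the fold limit and 2 to 4 with a replicate left out, and without that limit 3 were called in Tet3+/+ and 1 in Tet3m/m. The interaction of Tet3m/m and Tet3+/+ called 1 member with edgeR, DESeq2, a mean of at least 50 or only the compared groups, and 0 to 1 with a replicate left out. With 2-fold as the limit Tet3-CD gave 0 in Tet3+/+ and 1 in Tet3-/-. Replicate numbers did not pair the samples (correlations of deviations from -0.098 to 0.082 on day 3 and -0.053 to 0.029 in the Dnmt1 experiment), and with the replicate block 1 member, Tbx3, was called in day 3 Tet3m/m (adjusted p = 0.0425, limma), while Dppa3 lost its call with Dnmt1 in Tet3-/- (adjusted p = 0.117, limma). In the Dnmt1 experiment the block was fitted without the Tet3+/+ samples, so no comparison with Tet3+/+ had it. The lost Dppa3 call thus mixes the block with fewer samples. A fit of the compared groups alone (adjusted p = 0.238) and a pseudocount of 0.1 (adjusted p = 0.0533) also ended that Dppa3 call. Over all genes the day 3 count for Tet3-/- against Tet3+/+ was 115 by limma, 916 by DESeq2, 664 in the compared groups only, 223 with a pseudocount of 5, 64 with 0.1, 67 after TMM and 58 at a mean of at least 50, and for Tet3-/- against Tet3m/m 1744 and, in the compared groups only, 1157. The cause of these shifts was not tested. Depth limits Prdm14 and Dppa3 most, with 10 and 7 reads in EV Tet3+/+ of the Tet3-CD experiment. Where the sign changed, the log2 values with a replicate left out ran, on day 3 in Tet3-/- against Tet3+/+, from -0.91 to 0.42 for Nanog, -0.89 to 0.39 for Klf2, -0.063 to 0.25 for Klf5, -0.52 to 0.42 for Esrrb, -0.12 to 0.41 for Tfcp2l1, -1.01 to 0.036 for Zfp42, -0.10 to 0.33 for Tbx3 and -1.91 to 0.16 for Dppa3, and Esrrb was at 0.054 with the replicate block. Against Tet3m/m they ran from -1.12 to 0.16 for Klf2, -0.59 to 0.15 for Klf4 and -1.34 to 0.72 for Dppa3, and in Tet3m/m against Tet3+/+ from -0.13 to 0.69 for Klf2 and -0.21 to 0.57 for Prdm14. With Dnmt1 they ran from -0.16 to 0.82 for Prdm14 in Tet3-/-, -0.023 to 0.10 for Zfp42 in Tet3+/+, and in Tet3m/m from -0.10 to 0.014 for Klf4 and -0.0026 to 0.077 for Tbx3. For the interaction of Tet3-/- and Tet3+/+ they ran from -0.49 to 0.49 for Prdm14 and -0.030 to 0.071 for Tbx3, with Prdm14 at 0.052 in DESeq2, 0.069 in edgeR, 0.0086 with a pseudocount of 0.1 and 0.0093 after TMM. For that of Tet3m/m and Tet3+/+ they ran from -0.0030 to 0.12 for Zfp42, -0.38 to 0.080 for Prdm14 and -0.13 to 0.14 for Dppa3, which was at -0.0051 in DESeq2.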
